A study of Mus musculus with 5 samples.

Results

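Claudins form the barrier strands of the tight junction, and the 9 described here are those usually named in lung and other absorptive epithelia: Cldn1, Cldn3, Cldn4, Cldn6, Cldn7, Cldn8, Cldn12, Cldn18 and Cldn23. They were listed by gene symbol, with earlier results of these data known, and taken from the 19937 genes that the array annotation pairs with a single symbol, and each has 1 probe set. The array carries 30 genes with a claudin or claudin-domain symbol, so 21 such genes lie outside the group. Of the 9, 8 passed a filter on dim probe sets and were among the 14979 genes tested. The exception was Cldn1, whose signal lay below the filter.

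The arrays compare MLE-15 cells that express an shRNA against Grhl2 (3 arrays) with MLE-15 cells that express a non-silencing shRNA (2 arrays). MLE-15 is an immortalised mouse lung epithelial line, established from tumours driven by SV40 large T antigen under the human surfactant protein C promoter. Both groups carried a GFP-marked lentivirus, given for 16 h with polybrene (multiplicity of infection 50), and both were kept under puromycin for 6 days. Each array came from a separate transduction of that line, so the spread between arrays is a spread between transductions. Only 1 hairpin against Grhl2 is named, and puromycin-selected pools of a tumour-derived line, not primary alveolar cells, were measured.

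Claudins are small membrane proteins that span the membrane several times and polymerise into strands at the top of the lateral membrane. Sealing claudins narrow the path between cells, and pore-forming claudins let selected ions or water through it. In the alveolus this barrier holds back fluid and protein, and claudins 3, 4 and 18 are the ones best known there. Grhl2 is an epithelial transcription factor of the Grainyhead family, and in other mouse epithelia it is known to bind and activate Cldn4.

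The promoters of the members that the results turn on are shown because the knocked-down gene encodes a DNA-binding factor. Sequences are RefSeq windows of build GRCm38.p6, from 250 bases before to 50 bases after an annotated start, and are written 5′ to 3′ on the strand of the gene. Of the 9 claudins, 7 matched an entry, with 11 promoters between them, and the unmatched ones were Cldn8 and Cldn23. The Cldn4 window lies at chr5:134946885-134947184 on the minus strand and the Cldn3 window at chr5:134985964-134986263 on the plus strand, with their starts 39.3 kb apart. The Cldn12 window, 1 of 3 overlapping windows of that gene, lies at chr5:5514740-5515039 on the minus strand. Capitals mark a match to ACCNGTT, read here on the opposite strand.
Cldn4: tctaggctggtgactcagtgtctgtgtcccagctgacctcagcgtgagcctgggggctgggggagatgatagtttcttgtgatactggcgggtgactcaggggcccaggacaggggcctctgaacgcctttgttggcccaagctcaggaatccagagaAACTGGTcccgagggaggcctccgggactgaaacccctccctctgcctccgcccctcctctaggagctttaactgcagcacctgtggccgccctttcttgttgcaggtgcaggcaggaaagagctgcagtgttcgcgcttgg
Cldn3: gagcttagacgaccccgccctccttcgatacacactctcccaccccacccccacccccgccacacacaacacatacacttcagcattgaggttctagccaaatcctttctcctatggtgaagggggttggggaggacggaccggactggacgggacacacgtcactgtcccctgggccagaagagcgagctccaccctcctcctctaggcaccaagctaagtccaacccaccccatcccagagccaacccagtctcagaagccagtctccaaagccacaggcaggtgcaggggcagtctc
Cldn12: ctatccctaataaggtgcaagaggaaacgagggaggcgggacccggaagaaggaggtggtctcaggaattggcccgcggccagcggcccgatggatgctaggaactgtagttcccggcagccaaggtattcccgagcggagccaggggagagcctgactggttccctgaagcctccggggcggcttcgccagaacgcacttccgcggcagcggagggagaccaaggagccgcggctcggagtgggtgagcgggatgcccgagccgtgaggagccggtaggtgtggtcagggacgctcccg

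Both strands of the 11 claudin promoters were searched for AACCGGTT, the palindromic Grainyhead-type motif, for the looser AACNNGTT, which contains it, and for ACCNGTT, which overlaps both. AACCGGTT was in none of the 11 and AACNNGTT in none, against 0.146% and 4.2% of all 32851 mouse promoter windows of this length. ACCNGTT was in 2 of the 11, against 8.13% of all windows. Those 2 were the Cldn4 window, where the match starts at position −92 relative to the annotated start, and 1 of the Cldn7 windows, where it starts at −171. A match describes these letters only, and enhancers outside the windows were not searched. The Cldn4 and Cldn3 windows were close to each other in base composition, with 61% and 60.7% G+C and 9 CG dinucleotides each. The printed Cldn12 window had 66.3% G+C and 26 CG dinucleotides, against medians of 52.7% and 7 over all windows. It was the highest of the Cldn12 windows in both, as the others had 60.7% with 23 and 45.3% with 10.

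Values below are RMA log2 signals as deposited, and a log2 fold change is the Grhl2 shRNA mean minus the control mean. Probe sets differ in how brightly they bind, so changes are read between arrays. Where a gene is called dim or bright, or given as a share of a summed signal, this describes its probe set and not its RNA amount. Grhl2 itself (probe set 10423770) averaged 7.49 ± 0.10 in Grhl2 shRNA cells (SD, n = 3) and 7.72 ± 0.06 in control cells (SD, n = 2), which is 85.0% of the control signal (limma adjusted p = 0.082, which misses the 0.05 threshold). It passed when shRNA array 3, its highest, was left out, with a limma adjusted p of 0.047, and missed with any other array left out (0.170 to 0.320). The 6 lung epithelial markers (Nkx2-1, Epcam, Cdh1, Krt8, Krt18, Krt19) were all detected, between 9.92 and 12.2 on every array, and 0 of the 6 passed the limma test or had an unadjusted p under 0.05. Of 9 alveolar type II markers, 7 passed the filter, while Lamp3 and Slc34a2 were below it. The array number limits the precision, with 3 residual degrees of freedom per gene.

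Grhl2 shRNA cells had less Cldn8 and Cldn4 signal and more Cldn12 signal than control cells, and the other 5 tested claudins did not pass the threshold. Cldn8, a claudin that seals against sodium leak in distal kidney tubule and colon, fell by 0.91 on the log2 scale. Cldn4, a sealing claudin that increases in injured mouse lung, fell by 0.42. Cldn12, a claudin linked to calcium passage in the intestine, rose by 0.25. Thus 3 of 8 tested claudins passed a limma adjusted p of 0.05, where 6.38% of all 14979 genes did. As the members were listed with earlier results of these data known, this contrast does not test whether claudins differ from other genes. The 2 that fell compare with 3.52% of all genes called lower, and the 1 that rose with 2.86% called higher. The 8 log2 fold changes ran from −0.91 to 0.27, with 3 above 0 and 5 below, and their median was −0.06 against 0.0020 over all genes tested. In bulk RNA, a smaller number of cells that express a gene and less RNA per cell cannot be told apart.

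**Figure D1:**
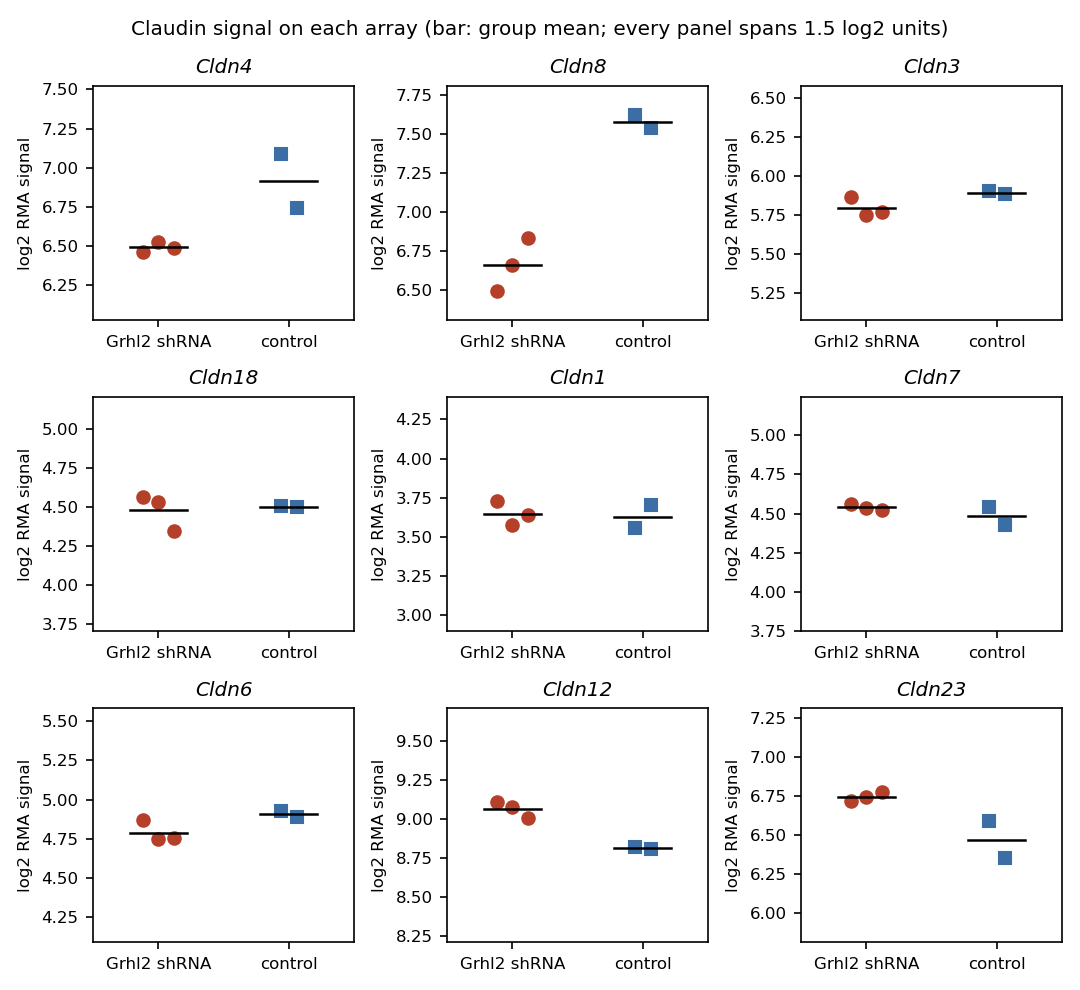
RMA log2 signal of each of the 9 claudins on every array, Grhl2 shRNA (3 points) left of control (2 points), with bars for the group means. Cldn8 shows the widest gap between groups (means 6.66 and 7.58), and in Cldn4 the control arrays lie apart from each other at 7.08 and 6.74.

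Cldn8 (probe set 10440647) had log2 signals of 6.49, 6.66 and 6.84 in Grhl2 shRNA cells and 7.62 and 7.53 in control cells. Every shRNA array lay well below both control arrays, and the shRNA arrays were the more spread out. The means were 6.66 ± 0.17 in shRNA cells (SD, n = 3) and 7.58 ± 0.06 in control cells (SD, n = 2), a 1.88-fold fall to 53.1% of control with a 95% confidence interval of 45.5 to 62.0%. The log2 fold change of −0.91 had a standard error of 0.094 and a limma adjusted p of 0.0059, and it was rank 8 among all falls. Without control array 1 or control array 2 the limma adjusted p was 0.055 or 0.052, although the log2 fold change stayed between −0.999 and −0.83 whichever array was left out.

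Cldn4 (probe set 10534395) had log2 signals of 6.46, 6.52 and 6.49 in Grhl2 shRNA cells and 7.08 and 6.74 in control cells. The shRNA arrays were nearly identical and all lay below both controls, which differed from each other far more. Means were 6.49 ± 0.03 in shRNA cells (SD, n = 3) and 6.91 ± 0.24 in control cells (SD, n = 2), leaving 74.5% of the control signal (95% confidence interval 64.0 to 86.9%). This log2 fold change of −0.42 had a standard error of 0.093 and a limma adjusted p of 0.045, just inside the threshold. Its size depended on which control array was kept. Without control array 1 the log2 fold change was −0.25 (limma adjusted p = 0.113), and without control array 2 it was −0.60 (limma adjusted p = 0.031). The call was also lost when any 1 shRNA array was left out, with limma adjusted p between 0.097 and 0.110.

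Cldn12 (probe set 10527965) had log2 signals of 9.11, 9.08 and 9.01 in Grhl2 shRNA cells and 8.82 and 8.81 in control cells. All 3 shRNA arrays lay above both controls, and the spread within each group was small. The means of 9.07 ± 0.05 (SD, n = 3) in shRNA cells and 8.82 ± 0.01 (SD, n = 2) in control cells differ by 0.25 on the log2 scale (standard error 0.047, limma adjusted p = 0.030), which is 119% of control with a 95% confidence interval of 110 to 128%. Unlike most claudins, the Cldn12 protein lacks the usual motif at its C-terminal end that binds junction scaffolds. Its call held when shRNA array 3 was left out (limma adjusted p = 0.041) and was lost without any other array, where the limma adjusted p was 0.068 to 0.152, while the log2 fold change stayed between 0.23 and 0.28.

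Cldn23 (probe set 10578203), a less studied claudin of surface epithelium in the colon, had the highest log2 fold change of the 8 but did not pass. Its log2 signals were 6.72, 6.74 and 6.77 in Grhl2 shRNA cells and 6.59 and 6.35 in control cells. The groups did not overlap, and as in Cldn4 the control arrays were farther apart than the shRNA arrays. Its log2 fold change of 0.27 had a standard error of 0.070, a limma adjusted p of 0.069 and a 95% confidence interval of 108 to 136% of control. The log2 fold change was 0.39 without control array 1 and 0.16 without control array 2, and it missed the threshold whichever array was left out (limma adjusted p = 0.055 to 0.249). At an adjusted p of 0.1 it would count as a rise, making 4 of 8 claudins against 12.4% of all genes tested.

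Cldn3 and Cldn6 both had values below 0 that missed the threshold. Cldn3 (probe set 10526241), a sealing claudin of alveolar type II cells, had log2 signals of 5.87, 5.75 and 5.77 in Grhl2 shRNA cells and 5.90 and 5.89 in control cells. Its shRNA array 1 lay just under the controls and the other shRNA arrays lower. The log2 fold change was −0.10, with a 95% confidence interval of −0.21 to 0.02 and a limma adjusted p of 0.29. Cldn6 (probe set 10442327), a claudin of embryonic epithelia, had 4.87, 4.74 and 4.75 in shRNA cells and 4.93 and 4.89 in control cells. It showed the same layout, with no overlap and a log2 fold change of −0.12 (95% confidence interval −0.24 to 0.0050, limma adjusted p = 0.23).

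The groups overlapped for Cldn7 and Cldn18, both dim on these arrays. Cldn7 (probe set 10377673), a claudin that also sits on the lateral membrane and binds EpCAM, had log2 signals of 4.56, 4.54 and 4.52 in Grhl2 shRNA cells and 4.54 and 4.43 in control cells (log2 fold change 0.056, 95% confidence interval −0.06 to 0.17, limma adjusted p = 0.55). Cldn18 (probe set 10596014), whose lung form is a defining claudin of the alveolar epithelium, had 4.56, 4.53 and 4.35 in shRNA cells and 4.50 and 4.50 in control cells. Its shRNA array 3 was the lowest and the other shRNA arrays the highest of the 5. The log2 fold change of Cldn18 was −0.02, with a 95% confidence interval of −0.18 to 0.14 and a limma adjusted p of 0.90. Both lay close above the filter of 4.22. Groups did not overlap in 6 of the 8 tested claudins, where 41.5% of all genes tested had groups that did not overlap.

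Cldn1 (probe set 10438769), the main barrier claudin of the skin, had log2 signals of 3.73, 3.57 and 3.64 in Grhl2 shRNA cells and 3.56 and 3.70 in control cells. These overlap and lie under the filter. Tested without the filter, its log2 fold change was 0.019, with a 95% confidence interval of −0.14 to 0.18 and a limma adjusted p of 0.93.

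**Figure D2:**
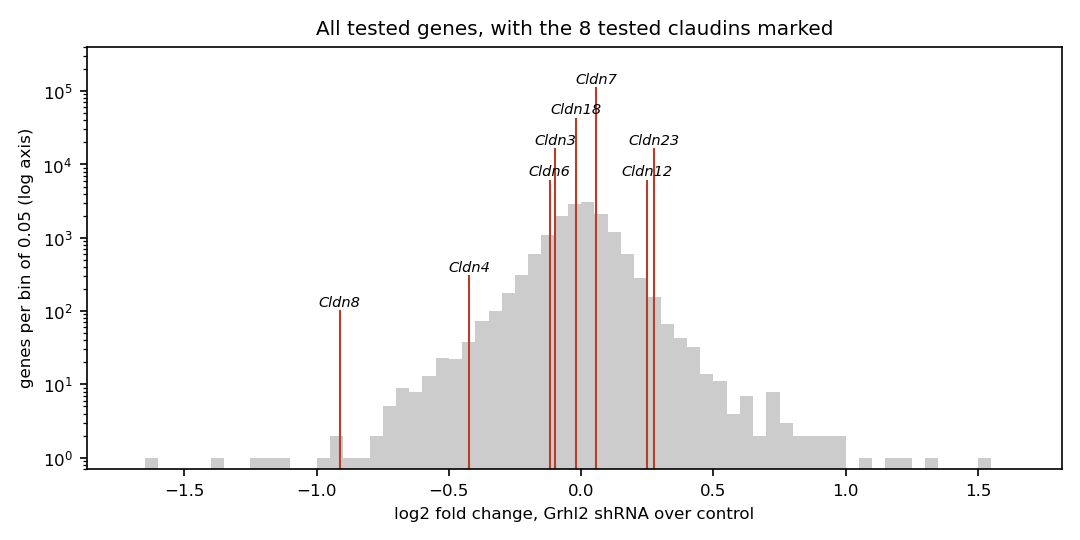
Histogram of log2 fold changes (Grhl2 shRNA over control) for all 14979 genes tested, on a log count axis, with lines at the 8 tested claudins. Cldn8 at −0.91 and Cldn4 at −0.42 stand in the lower tail, Cldn12 and Cldn23 at 0.25 and 0.27 on the upper flank, and Cldn3, Cldn6, Cldn7 and Cldn18 near the centre.

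Cldn4 and Cldn3 lie next to each other on mouse chromosome 5 and are transcribed away from each other. The pair was chosen because it lies side by side, and the difference between its signals was followed array by array. Cldn4 minus Cldn3 was 0.59, 0.78 and 0.72 on the log2 scale in Grhl2 shRNA cells and 1.19 and 0.86 in control cells. All shRNA values lay below both control values, with means of 0.70 ± 0.09 (SD, n = 3) in shRNA cells and 1.02 ± 0.23 (SD, n = 2) in control cells. The shRNA minus control difference was −0.33, with a two-sided exact permutation p of 0.2. That is the one-sided p doubled, the smallest that 10 splits of the 5 arrays can give in this way, so the test could not pass the threshold of 0.05. It was −0.16 without control array 1 and −0.49 without control array 2. The flanking genes Mettl27 and Abhd11 had log2 fold changes of 0.061 and 0.097 and neither passed (limma adjusted p = 0.57 and 0.22).

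The other claudins that passed the filter had log2 fold changes close to 0. Of 23 further claudin-family genes listed, 9 passed the filter, 10 were below it and 4 were not analysed here. Of the 9, 0 passed the limma test, where 6.38% of all genes did, and 0 had an unadjusted p under 0.05. Apart from Cldn9 and Cldnd1 they were dim, with control means from 4.79 (Tmem114, listed under a claudin synonym) to 5.81 (Cldn14). The 9 log2 fold changes ran from −0.035 to 0.031 (median −0.0022). Without the filter, those of the 10 dimmer genes ran from −0.21 (Cldn22) to 0.077 (Cldn34b2). The largest values were those of Cldnd1, a claudin-domain protein (−0.035, limma adjusted p = 0.69), and Cldn15, a sodium pore of the intestine (0.031, limma adjusted p = 0.85), whose sign turned without shRNA array 1 (−0.025) or without control array 1 (−0.048). Cldn15 was also the only one of 5 pore-forming claudins above the filter. Cldn9, the genomic neighbour of Cldn6, had a log2 fold change of −0.0022.

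**Figure D3:**
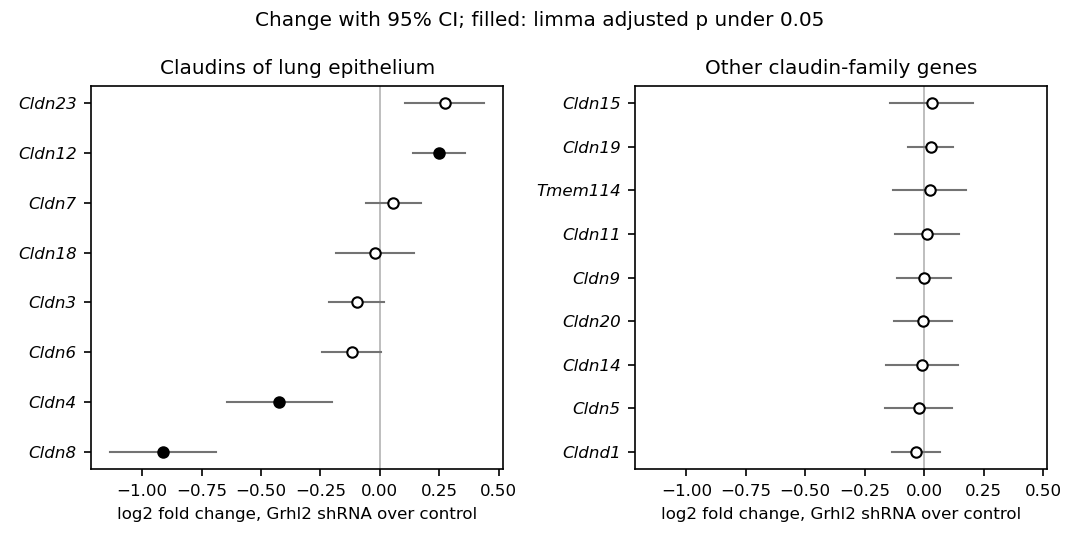
Log2 fold change (Grhl2 shRNA over control) with its 95% confidence interval for the 8 tested claudins and the 9 other tested claudin-family genes. The intervals of Cldn8, Cldn4, Cldn12 and Cldn23 exclude 0, though Cldn23 missed the adjusted threshold, and all 9 others, among them Tmem114, listed under a claudin synonym, lie between −0.035 and 0.031.

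Claudins act with cytoplasmic scaffolds and with other junction membrane proteins, including occludin and tricellulin of the MARVEL family. Of 23 such genes 19 were tested, of which 1 rose, 2 fell and 16 did not pass, and 14 of the 19 had values below 0, with a median of −0.068. Over all genes tested 2.86% rose and 3.52% fell. Jam2, an immunoglobulin-type junction adhesion molecule, had log2 signals of 7.72, 7.79 and 7.83 in Grhl2 shRNA cells and 7.32 and 7.32 in control cells. It rose by 0.46 (limma adjusted p = 0.0059). Magi3, a PDZ-domain scaffold, had 8.77, 8.72 and 8.84 in shRNA cells and 9.13 and 9.21 in control cells and fell by 0.39 (limma adjusted p = 0.013). Cgn, which encodes the actin-linked scaffold cingulin, had 8.25, 8.27 and 8.25 in shRNA cells and 8.47 and 8.45 in control cells and fell by 0.20 (limma adjusted p = 0.032). Jam2 and Magi3 lost the call without either control array (limma adjusted p = 0.054 and 0.055 for Jam2, and 0.058 and 0.098 for Magi3), and Cgn lost it whichever array was left out (0.072 to 0.155).

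Of 19 genes for claudin partners, modifying kinases and proteases, 18 were tested, 1 fell and 17 did not pass (median −0.019), a count near the 6.38% called over all genes. Prss8, the membrane protease prostasin, fell by 0.21 (limma adjusted p = 0.036), and lost the call whichever array was left out (0.072 to 0.167). Wnk4, a kinase that acts on claudins in kidney tubule, had a log2 fold change of −0.19 (limma adjusted p = 0.055). Of 20 transcription factors linked to claudin genes, 18 were tested, 1 rose, 1 fell and 16 did not pass (median −0.025). Ehf, an epithelial ETS factor, had log2 signals of 6.49, 6.92 and 7.11 in Grhl2 shRNA cells and 7.49 and 7.66 in control cells. It fell by 0.73 with a wide standard error of 0.17 (limma adjusted p = 0.049), and the call was lost without shRNA array 2 (0.103), control array 1 (0.149) or control array 2 (0.229). Cdx2, an intestinal homeobox factor, rose by 0.28 (limma adjusted p = 0.016) and lost the call without shRNA array 2 (0.056), control array 1 (0.095) or control array 2 (0.101).

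**Figure D4:**
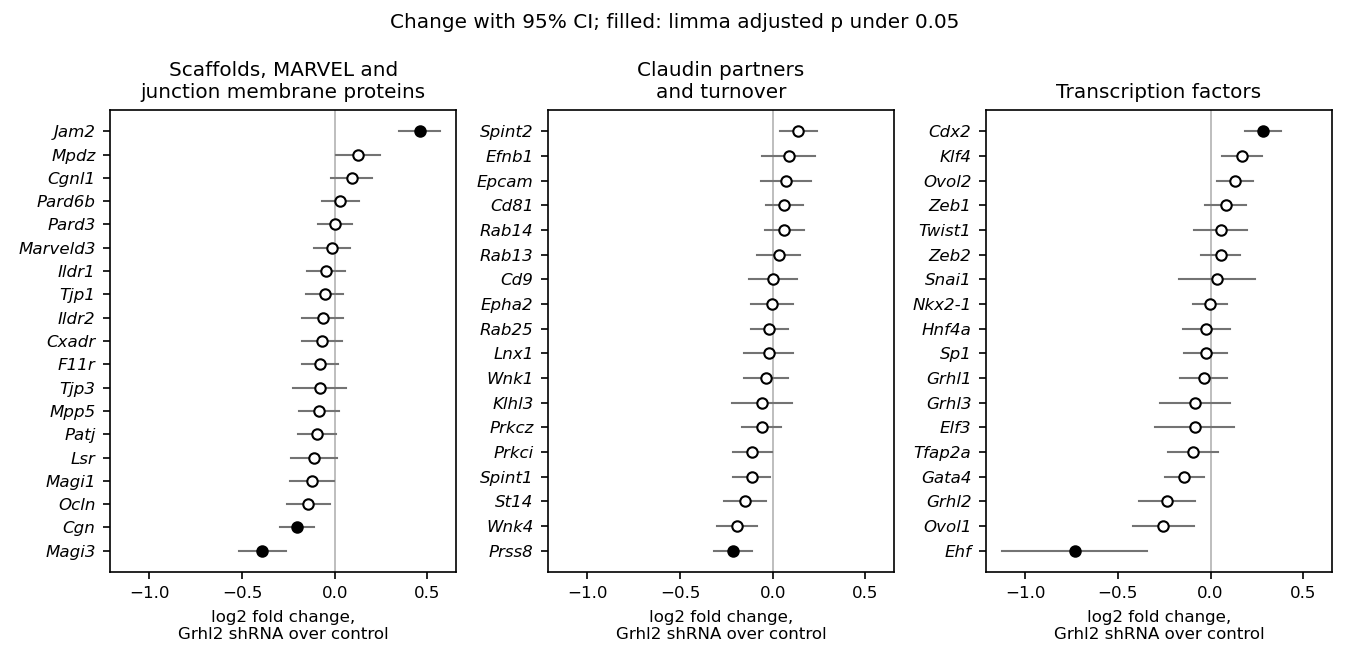
Log2 fold change (Grhl2 shRNA over control, points) with its 95% confidence interval (lines) for the tested junction scaffolds and membrane proteins, claudin partners and turnover genes, and transcription factors; filled points passed a limma adjusted p of 0.05. Jam2 (0.46) and Cdx2 (0.28) are the filled points above 0, and Ehf (−0.73), Magi3 (−0.39), Prss8 (−0.21) and Cgn (−0.20) those below it.

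Each of the 3 called claudins was set against the tested genes outside the claudins, leaving out those with predicted, RIKEN or accession names. The measure was the root mean square distance between the 5 array values of claudin and gene, each centred on its control mean. This likeness describes 5 arrays that share 1 contrast and carries no test. Nearest to Cldn4 were Stpg1 (distance 0.051), Pik3r3 (0.066) and Sprr1a (0.070), with log2 fold changes of −0.43, −0.46 and −0.44. Stpg1 did not pass (limma adjusted p = 0.082), and its log2 fold change was −0.20 without control array 1 and −0.65 without control array 2. Nearest to Cldn8 were Smim31 (0.105), Ghrl, which encodes ghrelin (0.128), and the tetraspanin-like Tm4sf1 (0.154), with log2 fold changes of −0.78, −0.77 and −0.82. Cldn12 had closer company, with Mars1, a methionyl-tRNA synthetase (0.010), Adat2 (0.011) and Ghitm (0.014) at log2 fold changes of 0.25, 0.25 and 0.24. Larger changes have fewer genes near them, so distances are not comparable between the 3 claudins.

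**Figure D5:**
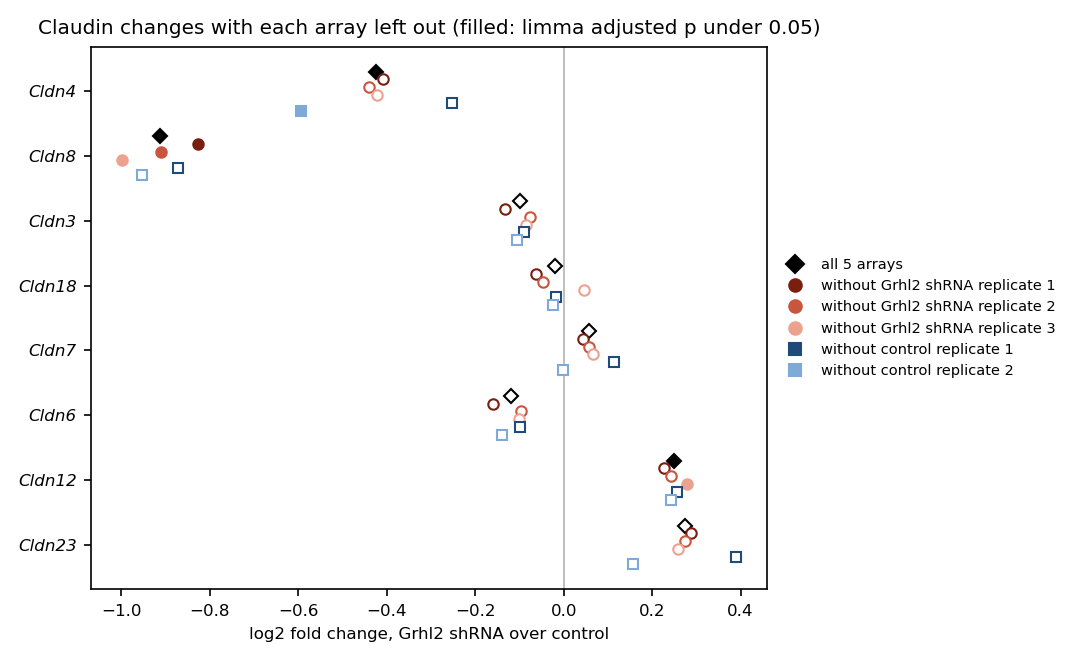
Log2 fold change (Grhl2 shRNA over control) of the 8 tested claudins with all arrays and with each array left out in turn; filled points passed a limma adjusted p of 0.05. Cldn8 stays between −0.999 and −0.83, and Cldn4 spreads from −0.60 to −0.25 according to which control array is kept.

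Over all genes tested, 6.38% passed the limma test. The share of tested markers that passed was higher in the type II, type I, airway, endothelial and immune lists, each of few genes. Among 7 tested type II markers 2 rose and 1 fell, while 0 of 6 lung epithelial and 0 of 6 mesenchymal markers passed. Summed linear signals weigh bright probe sets most, and the brightest gene made up 90.1% of the mesenchymal sum (Vim), 70.8% of the type II sum (Sftpb), 51.0% of the claudin sum (Cldn12) and 40.4% of the endothelial sum (Tek). Of 7 alveolar type I markers, 2 fell, Ager by 0.50 and Clic5 by 0.51, and the summed linear signal of the 7 was 3176 to 3340 in Grhl2 shRNA cells and 3951 to 4124 in control cells. The summed signal of 9 type II markers was 6183 to 6588 in shRNA cells and 6100 to 6239 in control cells, with Etv5 and Napsa higher and Sftpd lower. Of 8 airway markers 7 were tested and 1, Scgb3a1, rose by 1.23, with summed signals of 1058 to 1198 in shRNA cells and 1078 to 1126 in control cells. Of 6 endothelial markers 5 were tested and 1, Tek, rose by 0.91, with sums of 354 to 390 in shRNA cells and 294 to 314 in control cells and Kdr below the filter. Immune sums were 164 to 174 in shRNA cells and 165 to 170 in control cells, with Ptprc below the filter and 1 of the 4 tested markers, Tyrobp, higher by 0.28 (limma adjusted p = 0.020). Mesenchymal sums were 2159 to 2390 in shRNA cells and 2444 to 2809 in control cells, with 0 of 6 genes passing limma and 1, Vim, at an unadjusted p under 0.05. The part of these markers in the claudin changes was not tested. For comparison, the 9 claudins together summed to 965 to 985 in shRNA cells and 969 to 1029 in control cells.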

How the data were processed

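RNA of MLE-15 cells was hybridised to Affymetrix whole-transcript arrays, with 300 ng per sample and 1 sample per array. Per the submitters' processing notes, the authors ran RMA in Affymetrix Expression Console, and they deposited 1 table of log2 values. The sources used here give no versions, and the log base was taken from the method and the range of values. RMA equalises array distributions, so a shift shared by all genes would not be seen. The platform annotation gave 21640 of 34760 probe sets exactly 1 symbol, and the 1321 with several and 11799 with none were not named.

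Single-symbol probe sets with a mean below 4.22, the 25th percentile, were left out. The brightest probe set stood for a gene. The 14979 genes were fitted with limma 3.58.1 (lmFit, then eBayes, two-sided) under R 4.3.3, and p-values were Benjamini-Hochberg adjusted over all of them. The fit was tested on simulated arrays of independent normal values, with variances drawn from its own fitted prior. Such data meet the assumptions of the fit, so they cannot show how it does where the real arrays depart from them. Alternatives covered the filter, centring, probe set choice, variance prior, replicate block, threshold and each array left out.

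Named genes are all members, Grhl2, and from each list at most 6 called genes by size of change; a list with fewer than 2 called gives its 2 largest changes. Likeness names the 3 nearest genes outside the claudins, with predicted, RIKEN and accession names left out. The other junction genes with values, neighbours and markers were named after values were seen. Members and lists were chosen with earlier results of these data known. Neighbouring genes follow RefSeq GRCm38.p6 order. No array positions are given.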

Additional observations from a re-analysis of the deposited data

How the results depend on the processing

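Of the 9 claudins, Cldn3, Cldn4, Cldn6, Cldn8, Cldn12 and Cldn23 kept their direction under each alternative that gave a value. The genes called numbered 956, against 418 with no filter, 1708 with the filter at the 50th percentile, 2034 with a trended robust prior, 1851 at a threshold of 0.1, and 67 to 493 with 1 array left out. Claudins called numbered 3, against 4, with Cldn23 added, at the 50th percentile filter (limma adjusted p = 0.025), with the trended robust prior (0.023) and at a threshold of 0.1, 1 with no filter and 0 to 2 with 1 array left out. Without the filter the limma adjusted p was 0.082 for Cldn4 (log2 fold change −0.42) and 0.063 for Cldn12 (0.25). With 1 array left out, log2 fold changes were −0.60 to −0.25 for Cldn4, −0.999 to −0.83 for Cldn8, 0.23 to 0.28 for Cldn12, −0.061 to 0.046 for Cldn18, −0.00052 to 0.113 for Cldn7, −0.048 to 0.111 for Cldn15 and −0.49 to −0.16 for Cldn4 minus Cldn3. The sign turned for Cldn18 without shRNA array 3 (0.046), for Cldn7 without control array 2 (−0.00052) and for Cldn15 without shRNA array 1 or control array 1. Where only 1 control array was left, it was assumed to vary like the others.

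Deviations of same-numbered arrays from their group means had r = 0.057 and 0.019 over genes. With 2 control arrays the control deviations mirror each other, so these values cannot tell whether the numbers pair the arrays. With the replicate number as a block, 172 genes and 1 claudin, Cldn8, were called, with log2 fold changes of −0.42 for Cldn4 (limma adjusted p = 0.113), 0.28 for Cldn12 (0.073) and 0.046 for Cldn18, and shRNA array 3 has no partner. Leaving an array out lowers the number of arrays, and dropping the filter raises the number of genes tested. Why calls were lost was not tested. The alternatives were also followed for 21 other named genes, of which 20 kept their direction in every alternative. The cell type markers, and neighbouring genes other than P3h2 and Lonrf1, were not followed in this way. Of the 16 followed genes that were called, 1, Tm4sf1, stayed past the threshold in every alternative. Ehf, Cgn and Prss8 missed it with no filter (limma adjusted p = 0.084, 0.069 and 0.073), Ehf with the trended robust prior (0.071), and Magi3 and Cdx2 with the replicate block (0.052 and 0.074). Cldn1 could be tested only with no filter, and 5 arrays limit the precision of every comparison.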

Other observations

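Apart from the members, 32 genes lie within 2 places of a claudin of the group in the RefSeq order, and 2 of the 23 tested passed the limma test, where 6.38% of all genes did. P3h2, a collagen prolyl hydroxylase next to Cldn1, averaged 9.13 ± 0.03 in Grhl2 shRNA cells (SD, n = 3) and 9.43 ± 0.04 in control cells (SD, n = 2), and fell by 0.31 (limma adjusted p = 0.014), while Cldn1 itself was below the filter. Lonrf1, near Cldn23, averaged 6.10 ± 0.07 in Grhl2 shRNA cells and 5.84 ± 0.04 in control cells, and rose by 0.26 (limma adjusted p = 0.038). Cldn23 itself had a log2 fold change of 0.27 and did not pass. Prag1, which lies between Cldn23 and Lonrf1, had 0.034 (limma adjusted p = 0.79). Mfhas1, on the other side of Cldn23, had 0.061 (limma adjusted p = 0.55). P3h2 and Lonrf1 were named after their values were seen. P3h2 lost its call without control array 1 (0.090) or control array 2 (0.078), and Lonrf1 kept it only without shRNA array 3 (0.039).

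Among claudin genes below the filter, Cldn16, the other neighbour of Cldn1, had log2 signals of 3.90, 3.92 and 3.79 in Grhl2 shRNA cells and 4.05 and 4.07 in control cells. The groups do not overlap, and without the filter its log2 fold change was −0.19 with a limma adjusted p of 0.147.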
